A study of Mus musculus with 2 samples.

Results

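The regions described here were accessible stretches inside protein-coding genes that mouse hematopoietic stem cells kept when the linker histone H1C was overexpressed. They were chosen by measured overlap: a region of the control list on chromosomes 1 to 19 and X was taken where it overlapped a protein-coding gene, lay more than 1 kb from both ends of every such gene, and shared at least 1 bp with a region of the H1C list. Of 11436 intragenic distal control regions, 2407 met this rule (21.0%, exact Clopper-Pearson 95% interval 20.3 to 21.8%) and are called kept, and 9029 overlapped no H1C region and are called not kept. The overlap is the rule itself, so this share, and those below, are descriptions with no test. Over all 31831 control regions on these chromosomes the share was 34.1%.

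The assay was ATAC-seq, which reads accessible chromatin from the places where a transposase can insert sequencing adapters. Both libraries came from hematopoietic stem cells, gated as CD48-CD150+LSK, from the bone marrow of wild-type C57BL/6J mice, with about 1000 cells per library. In the H1C group the cells carried an MSCV-H1C retrovirus and are labelled H1C overexpression, and in the control group they carried the pMSCV retrovirus. There was 1 library per group, so there is no replicate check, no p-value of a difference between the groups is given, and a difference between the conditions cannot be told apart from one between these libraries. The sources used here do not give the age of the mice, how many were pooled or the level of H1C reached. The H1C list held 13156 regions and the control list 32005.

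Linker histones bind the nucleosome where DNA enters and leaves it and favour the folding of chromatin, and H1C is one of the somatic variants of this family, encoded by the gene now named H1f2. Open regions inside genes and away from the gene ends are of several kinds. They include enhancers, which act on promoters at a distance, sites of architectural proteins, and internal promoters, from which shorter or alternative transcripts of the host gene start. In hematopoietic stem cells, enhancers of this sort lie in the introns of lineage regulators such as Runx1 and Erg.

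An annotated internal start lay in a larger share of kept than of not kept regions. RefSeq promoter windows (GRCm38.p6, the mm10 build), which run from 250 bp before to 50 bp after a start, were available for the hosts of 79.3% of the intragenic distal regions. In these hosts, 555 of 1937 kept regions (28.7%) overlapped a window of an internal start, against 430 of 7134 not kept regions (6.03%). The start was that of a protein-coding gene that the region overlapped in 514 kept and 364 not kept regions, and of a long noncoding RNA gene in 41 kept and 66 not kept regions. The summit lay close to the start in both, at a median of 63 bp in kept and 49 bp in not kept regions. The word distal therefore holds against the gene ends in the annotation and not against every annotated start.

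The windows of the 3 kept regions of this kind that were strongest in control, and of the 3 strongest not kept ones, are shown to make their base composition visible. Each is 300 bases, written 5′ to 3′ on the strand of its gene, from RefSeq, build GRCm38.p6. Capitals mark matches, on either strand, of 12 fixed words that are cores of the motifs of known factors. These were GGGCGG for the SP and KLF factors, CCAAT for the factor NFY, and CCGGAAGT or else CAGGAAGT for the ETS family. They were also GAGGAAGT for the factor PU.1, AGGNGGC for the insulator factor CTCF, TGTGGT for the RUNX family, and AGATAA for the family of blood-forming GATA factors. The last were TGACAG for the MEIS factors, TGANTCA for the AP-1 family, and CAGCTG and also CACGTG for factors that bind E-boxes. Adjacent or overlapping matches run together. Rps6ka2, which encodes a ribosomal S6 kinase, has its window at chr17:7169865-7170164 on the plus strand. Ccnl2, which encodes cyclin L2, has it at chr4:155812239-155812538 on the plus strand. Stk25, which encodes a serine/threonine kinase, has it at chr1:93635678-93635977 on the minus strand. Among those not kept, Urgcp has its window at chr11:5741127-5741426 on the minus strand, Poc1a, which encodes a centriole protein, at chr9:106280811-106281110 on the plus strand, and Dnajb4, which encodes a J-domain chaperone, at chr3:152193796-152194095 on the minus strand.
Rps6ka2: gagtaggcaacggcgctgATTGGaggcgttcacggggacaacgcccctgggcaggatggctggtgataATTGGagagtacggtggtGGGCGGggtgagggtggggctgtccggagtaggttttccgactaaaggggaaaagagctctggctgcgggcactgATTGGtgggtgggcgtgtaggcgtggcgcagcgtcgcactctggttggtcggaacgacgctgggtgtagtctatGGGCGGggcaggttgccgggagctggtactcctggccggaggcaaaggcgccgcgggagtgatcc
Ccnl2: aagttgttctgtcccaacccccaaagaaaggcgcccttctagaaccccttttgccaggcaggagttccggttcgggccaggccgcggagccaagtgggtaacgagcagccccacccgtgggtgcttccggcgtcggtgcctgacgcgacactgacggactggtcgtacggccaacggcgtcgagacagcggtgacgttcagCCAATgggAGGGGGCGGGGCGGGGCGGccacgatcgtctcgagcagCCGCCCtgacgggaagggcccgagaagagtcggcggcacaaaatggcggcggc
Stk25: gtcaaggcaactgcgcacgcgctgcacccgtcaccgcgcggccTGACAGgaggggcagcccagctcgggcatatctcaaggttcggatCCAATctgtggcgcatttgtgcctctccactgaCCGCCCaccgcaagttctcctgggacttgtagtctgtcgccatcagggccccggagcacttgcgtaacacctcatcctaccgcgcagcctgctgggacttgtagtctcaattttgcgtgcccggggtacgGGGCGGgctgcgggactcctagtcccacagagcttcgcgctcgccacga
Urgcp: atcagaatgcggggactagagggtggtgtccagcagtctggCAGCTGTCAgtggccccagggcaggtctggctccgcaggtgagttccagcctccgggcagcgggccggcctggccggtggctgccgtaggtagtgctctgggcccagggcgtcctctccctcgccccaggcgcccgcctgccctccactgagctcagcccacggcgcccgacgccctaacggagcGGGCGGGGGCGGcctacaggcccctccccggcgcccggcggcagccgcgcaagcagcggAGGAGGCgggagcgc
Poc1a: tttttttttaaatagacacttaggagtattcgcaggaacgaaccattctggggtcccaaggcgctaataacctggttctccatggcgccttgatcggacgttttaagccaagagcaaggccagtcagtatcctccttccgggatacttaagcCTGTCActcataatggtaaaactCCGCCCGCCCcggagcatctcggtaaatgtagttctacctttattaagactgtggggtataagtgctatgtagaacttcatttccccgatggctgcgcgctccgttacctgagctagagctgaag
Dnajb4: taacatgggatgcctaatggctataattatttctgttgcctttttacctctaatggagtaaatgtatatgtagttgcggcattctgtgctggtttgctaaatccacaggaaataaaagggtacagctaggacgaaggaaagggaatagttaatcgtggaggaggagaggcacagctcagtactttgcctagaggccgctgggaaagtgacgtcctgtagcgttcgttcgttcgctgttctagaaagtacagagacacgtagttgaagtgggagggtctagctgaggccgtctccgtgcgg

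G and C made up 64.7% of the kept window of Rps6ka2, 67.3% of that of Ccnl2 and 64.0% of that of Stk25, against 75% in Urgcp, 48.3% in Poc1a and 47.3% in Dnajb4, which were not kept. The Rps6ka2 window had 3 CCAAT and 2 GGGCGG matches, the Ccnl2 window 4 GGGCGG and 1 CCAAT, and the Stk25 window 2 GGGCGG and 1 CCAAT. The windows of Urgcp and Poc1a had 2 GGGCGG matches each, and that of Dnajb4 had a match to none of the 12 words.

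Over all windows of this kind, those in kept regions were richer in G and C, at 62.9% ± 8.48 (SD over 555 regions), than those in not kept regions, at 59.2% ± 9.53 (SD over 430 regions). All 32619 promoter windows in the table averaged 53.9%. The CpG dinucleotide, where DNA methylation is placed in mammals, was found at 0.756 ± 0.234 of the number that base composition alone gives in kept windows, at 0.571 ± 0.294 in not kept windows and at 0.464 in all windows. At matched strength in control, defined below, the CpG ratio was 0.103 higher in kept windows, and higher in 6 of the 6 bins that held both kinds. Without the regions of −log10 p 30 and over it was 0.0845 higher, in 5 of 5 bins.

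The word GGGCGG, a core of the motifs of SP and KLF factors, stood in 70.6% of kept and 51.2% of not kept windows, and in 35.9% of all windows. At matched strength the difference was 14.3 points with a 95% interval of -6.56 to 35.2, so it was not detectable beyond counting error. CCAAT stood in 39.8% of kept, 30.5% of not kept and 37.6% of all windows, and CCGGAAGT in 9.19, 4.88 and 3.91%. AGGNGGC stood in 45.0, 36.0 and 29.4% of the same sets. At matched strength the difference between kept and not kept windows was 2.46 points for CCAAT (-18.4 to 23.4), -0.07 points for CCGGAAGT (-14.6 to 14.5) and 10.6 points for AGGNGGC (-8.69 to 29.9), so none of these was detectable beyond counting error either. The bin of −log10 p 30 and over held 283 kept and 7 not kept windows. Without it the differences were 8.17 points for GGGCGG (-1.49 to 17.8) and 3.28 points for CCAAT (-5.89 to 12.4). They were 4.05 points for CCGGAAGT (-0.095 to 8.20), where the sign turned, and 2.05 points for AGGNGGC (-7.69 to 11.8). These were not detectable beyond counting error either.

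The words of hematopoietic factors had no common direction at matched strength. TGTGGT stood in 11.4% of kept, 16.3% of not kept and 16.6% of all windows, AGATAA in 5.05, 5.12 and 11.2%, and TGACAG in 15.1, 20 and 18.9%. GAGGAAGT stood in 3.78, 5.58 and 3.22%, CAGGAAGT in 4.32, 6.98 and 3.35%, and TGANTCA in 5.23, 8.84 and 7.85%. These unmatched shares were lower in kept than in not kept windows, but at matched strength the sign turned for 4 of the 6 words. The matched difference was 2.59 points for AGATAA (0.189 to 4.99), 3.21 points for TGANTCA (1.02 to 5.40), 1.65 points for GAGGAAGT (-0.524 to 3.82) and 0.570 points for CAGGAAGT (-2.17 to 3.31). It was -5.16 points for TGTGGT (-20.0 to 9.68) and -14.5 points for TGACAG (-35.1 to 6.11). These intervals are approximate. In a bin where no not kept window held the word, those windows add no spread, so the interval can be too narrow. The top bin held 7 not kept windows, and without it the differences were 1.24 points for AGATAA (-3.06 to 5.53), 1.04 points for TGANTCA (-2.50 to 4.58), 0.056 points for GAGGAAGT (-3.83 to 3.94), -3.98 points for CAGGAAGT (-8.91 to 0.939), -7.43 points for TGTGGT (-14.8 to -0.113) and -0.019 points for TGACAG (-6.99 to 6.95). The E-box CAGCTG stood in 12.8% of kept, 19.3% of not kept and 16.4% of all windows, and CACGTG in 9.19, 8.84 and 7.20%. A match is a run of letters and not a bound site.

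The kept share was higher where the region was stronger in control. Each deposited region has a −log10 p, which grows as the reads at the summit exceed the local background of the same library, and regions were compared in 7 bins of its control value. Of intragenic distal regions, 5.17% were kept under 5, 8.12% from 5 to 7.5, 9.30% from 7.5 to 10 and 14.5% from 10 to 15. The share was 34.3% from 15 to 20, 59.6% from 20 to 30 and 94.3% at 30 and over. The median −log10 p was 18.9 in kept regions (range 4.13 to 251.4) and 8.74 in not kept regions (range 3.56 to 40.03). In the top bin, which has no upper edge, kept regions thus reached far higher values, and strength is matched there only in part.

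**Figure D1:**
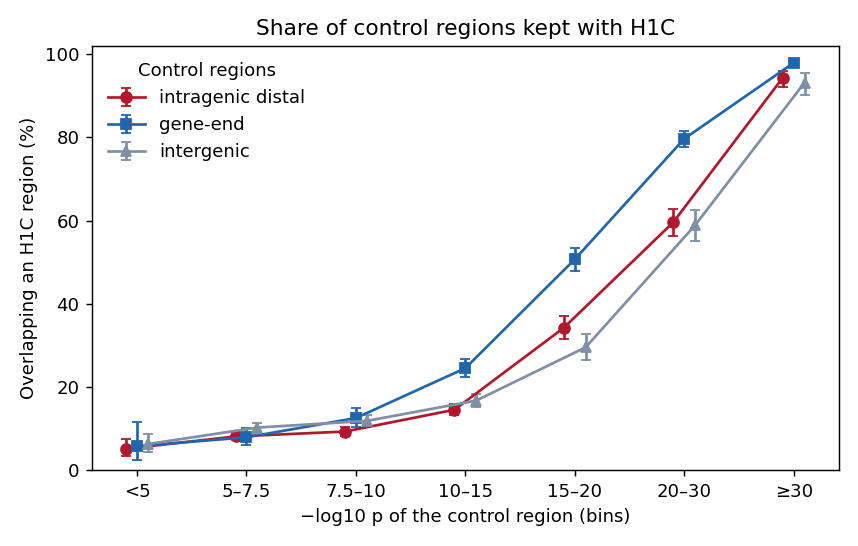
Share of control regions that overlapped an H1C region (y axis, percent, error bars are exact 95% intervals of counting error) in bins of control −log10 p (x axis), for intragenic distal, gene-end and intergenic regions. The intragenic share climbs to 94.3% in the top bin and lies below the gene-end share in every bin from 7.5 up.

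Intragenic regions had a lower kept share than gene-end regions at matched strength, and one close to that of intergenic regions. Of 10145 control regions within 1 kb of a protein-coding gene end, 62.9% overlapped an H1C region, and of 10250 intergenic ones, 20.3% did. Averaged over the bins with the weights of the intragenic regions, the intragenic share minus the gene-end share was -6.45 points (95% interval -7.58 to -5.32 points), and minus the intergenic share -1.13 points (-2.07 to -0.198 points). With regions also matched on width these differences were -4.45 and -1.11 points. All intervals given cover counting error only, and they can be too narrow. PCR reads without molecular identifiers are not independent molecules, and regions in the same host gene were counted as independent. The intervals also leave out any spread between cultures.

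Internal starts were more frequent in kept regions from a −log10 p of 7.5 up, and not below it. The share that overlapped a promoter window was 6.22% in kept (95% interval 3.25 to 10.6%) and 4.55% in not kept regions (3.66 to 5.59%) from 7.5 to 10. From 10 to 15 it was 10.6% (7.42 to 14.4%) and 7.40% (6.24 to 8.71%), so in both bins the intervals overlapped. It was 25.6% in kept and 14.3% in not kept regions from 15 to 20, 34.7 and 18.5% from 20 to 30, and 58.8 and 25% at 30 and over. In the bins from 15 up the intervals did not overlap. Under 5 the shares were 0% in kept (0 of 25 regions) and 1.59% in not kept regions, and from 5 to 7.5 they were 1.55 and 2.74%. Weighted over the bins by the kept regions, the difference was 14.2 points (95% interval 9.66 to 18.8 points). The top bin held 28 not kept regions in these hosts, and without that bin the difference was 7.75 points (5.37 to 10.1 points). Read the other way, 56.3% of the 985 regions with a window were kept, against 17.1% of the 8086 without one, and at matched strength the share was 9.87 points higher with a window (7.12 to 12.6 points).

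**Figure D2:**
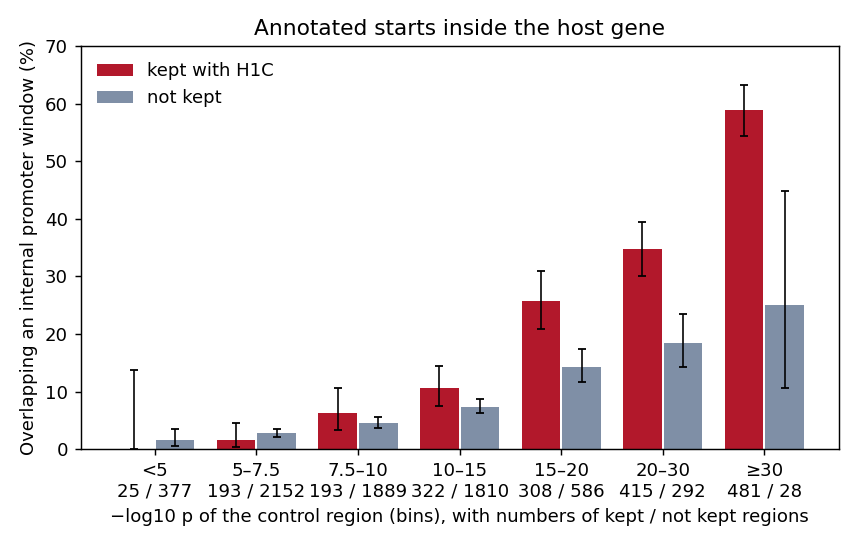
Share of intragenic distal regions that overlapped an annotated internal promoter window (y axis, percent, error bars are exact 95% intervals) in kept and not kept regions, by bin of control −log10 p (x axis). At 30 and over it was 58.8% in kept and 25% in not kept regions, and under 7.5 it was not higher in kept ones.

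Along the host gene, kept regions lay nearer to the 5′ end, and the difference was near 0 without the internal starts. Of the regions whose host had a strand in the table, 31.1% of kept (603 of 1937) and 22.4% of not kept ones (1597 of 7134) lay in the first 20% of the host gene. At matched strength the difference was 3.76 points with an interval of -1.41 to 8.92 points, and without the regions that overlapped a window it was -0.09 points (-4.07 to 3.89 points). The median position was 36.6% of the way along the gene in kept and 45.9% in not kept regions. Among regions with a window it was 19.1% in kept and 28.4% in not kept ones, and among those without a window 44.1 and 47.0%.

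**Figure D3:**
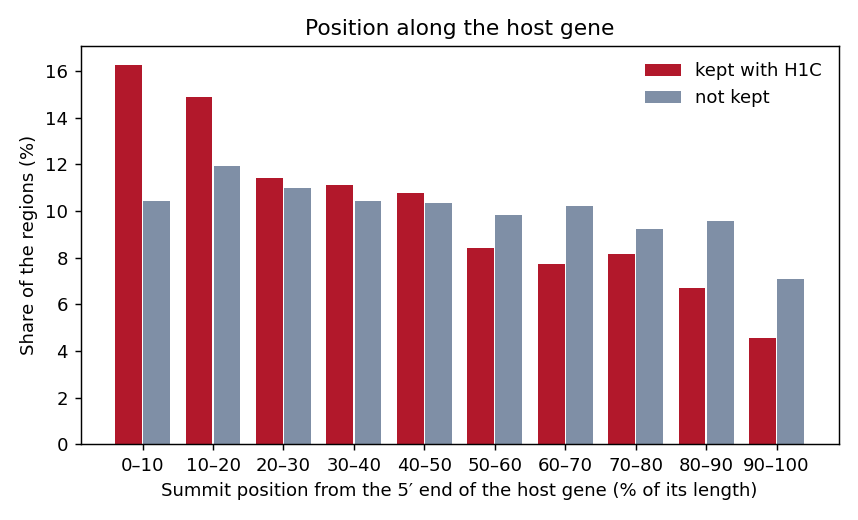
Share of regions in each 10% of the host gene, counted from its 5′ end (x axis, percent of gene length), for kept and not kept intragenic distal regions (y axis, percent of regions). The first 10% of the gene held 16.3% of kept and 10.4% of not kept regions, and the last 10% held 4.54 and 7.08%.

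The surroundings of kept regions were also compared at matched strength. Kept regions were wider, with a median of 438 bp against 274 bp, and 113 bp wider at matched strength (97.0 to 129 bp), in 7 of 7 bins. A wider region has more room to overlap another, and when a kept region had to share 50% of its length with the H1C region and the reverse, this difference was -14.7 bp. Of kept regions, 46.0% lay within 10 kb of a gene end, against 34.8% of not kept ones, 7.55 points more at matched strength (2.93 to 12.2 points). The kept share was higher in 3 of the 7 bins and lower in 4, for instance 22.3% in kept and 30.6% in not kept regions from 5 to 7.5. Without the top bin the matched difference was 3.48 points (0.653 to 6.31 points). Without the regions that overlapped a window it was 1.89 points, and in bins of pileup in place of −log10 p it was 0.285 points.

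The host genes of kept regions less often had an open end of their own. A control region lay within 1 kb of an end of the host gene for 1232 kept regions (51.2%) and 5197 not kept regions (57.6%). At matched strength the difference was -8.78 points (-13.4 to -4.14 points), and the kept share was lower in 6 of 7 bins. Without the top bin the difference was -5.16 points (-8.03 to -2.29 points). The share with such an end was lowest in kept regions with an internal start, at 34.1% (189 of 555), against 42.1% (181 of 430) in not kept regions with one. Without an internal start it was 58.2% (805 of 1382) in kept and 59.1% (3960 of 6704) in not kept regions, a difference of -4.55 points at matched strength (-8.75 to -0.337 points). Whether an internal start is the main start of its host gene was not tested.

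Host genes were shorter around kept regions in the unmatched comparison, with a median length of 73.8 kb against 91.7 kb. At matched strength the log2 difference of length was -0.07, with an interval of -0.19 to 0.06, and its sign turned in bins of pileup, without the top bin and without the regions that overlapped a window. The local background, the reads expected around a region, was 0.16 higher on the log2 scale in kept regions at matched −log10 p while in bins of pileup the difference was -0.29. An end of a noncoding gene lay within 1 kb of 7.23% of kept and 4.46% of not kept regions, 2.57 points more at matched strength and -0.525 points in bins of pileup. Another control region lay within 5 kb of 33.8% of kept and 28.6% of not kept regions, 3.34 points more at matched strength (-0.763 to 7.44 points) and -19.6 points in bins of pileup. None of these last 4 measures kept its sign in all the settings tried.

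The height of a kept region was compared between the libraries as its pileup, the number of reads stacked at the summit, which was solved from the deposited fold and −log10 p and may count fragments in place of reads. Ratios were divided by 1.10, the ratio of the genome-wide backgrounds of H1C (4.40 reads) and control (3.99 reads). Only regions also called in H1C have a ratio, and it comes from the contrast that chose the regions, so it is a description. The median H1C pileup was 25 reads (range 15 to 229) and the median control pileup 40 reads (range 13 to 231). The median log2 ratio of H1C to control was -0.71, with quartiles of -0.97 and -0.34. Scaled by the local backgrounds at these regions the median was -0.43, and with no scaling -0.57. With the genome-wide scale, the ratio was below 0 for 89.2% of kept regions. Its 95% interval lay wholly below 0 for 1211 regions, included 0 for 1196, and lay above 0 for 0 regions. Local scaling and no scaling both gave higher ratios, and these counts depend on the scale and were not repeated with them. Each library pooled its cells, so a lower pileup in every cell and an open region in fewer cells cannot be told apart.

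The ratio was lower where the control pileup was higher, up to 80 reads, although a region under the calling threshold in H1C has no ratio, which touches weak regions most. The median log2 ratio was 0.03 at control pileups of 20 or less, where 8.02% of regions were kept, -0.36 above 20 to 30, and -0.71 above 30 to 40. It was -0.93 above 40 to 60, -0.97 above 60 to 80 and -0.89 above 80, where 98.6% of regions were kept and few ratios are missing. In hosts listed in the promoter table, the 555 regions with an internal start had a median of -0.86 and the 1382 without one -0.61. At control pileups of 60 or more these were -0.94 (219 regions) and -0.97 (155 regions).

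**Figure D4:**
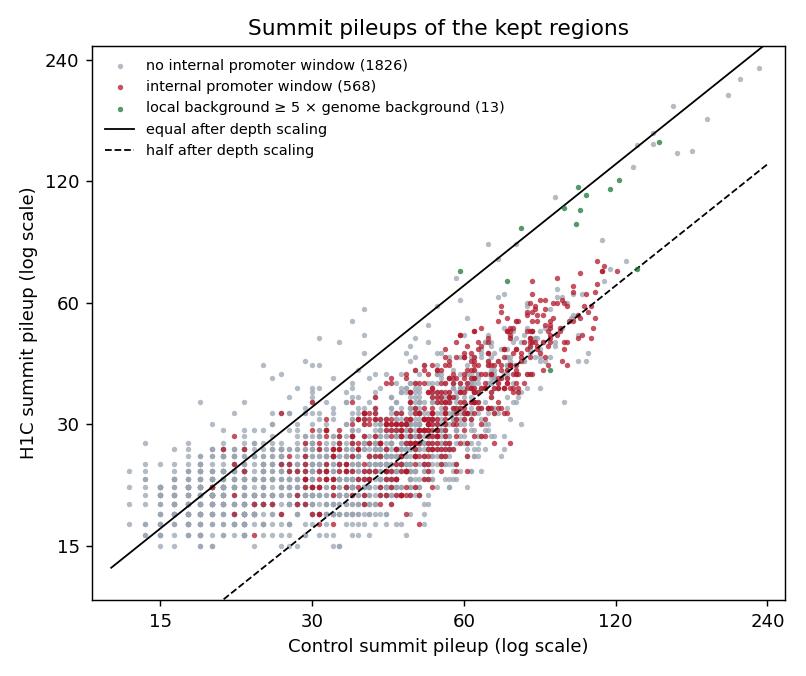
Summit pileup in H1C (y axis, reads) against summit pileup in control (x axis, reads) for the kept intragenic distal regions, both on log axes, with regions that overlap an internal promoter window, others (hosts with no listed window included) and those of high-copy sequence marked. The solid line marks equal and the dashed line 0.5 times the control pileup after depth scaling: at high control pileups most points lie near the dashed line, and a smaller number, with most of the 13 high-copy regions, lie near the solid one.

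A small set of tall regions had log2 ratios closer to 0. Of 471 intragenic distal regions with a control pileup of 60 or more, 452 were kept, and 28 of these had a log2 ratio above -0.4. Of the 28, 19 lay in hosts listed in the promoter table and 0 of these overlapped an internal window, against 219 of the 355 listed regions with lower ratios (61.7%). The 28 lay in 20 host genes, and 10 of them were of high-copy sequence, defined as a local background of at least 5 times the genome-wide one. The 28 regions were chosen by their ratio, so these counts have no test.

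The 10 kept regions strongest in control all belonged to that set. In Chl1, which encodes a neural cell adhesion molecule, the region at chr6:103648964-103649380 had a pileup of 229 in H1C and 231 in control (log2 ratio -0.15, 95% interval -0.42 to 0.12). In Cldn34d it was 215 in H1C and 212 in control. In Filip1l it was 197 and 200, and in Cdk8, which encodes a kinase of the Mediator complex, 171 and 182. In these 4 regions the pileups of the libraries were close even before scaling.

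Zc3h7a had 143 in H1C and 170 in control, Gm525 141 and 159, and Kctd16, which encodes a subunit partner of GABA-B receptors, 148 and 132. Mdga2 had 158 in H1C and 142 in control, Atrnl1 130 and 130, and Aida 185 and 156. The log2 ratios of the 10 lay between -0.39 (Zc3h7a) and 0.10 (Aida), and the interval of 9 of them included 0. Kctd16 had no promoter window in the table, and none of the other regions overlapped an internal one.

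The strongest regions with an internal start, added after their values were seen, had lower pileups in H1C. Rps6ka2, whose window is shown above, had 72 in H1C and 113 in control (log2 ratio -0.79, 95% interval -1.24 to -0.35), with its region 37.8% of the way along the gene. Ccnl2 had 57 in H1C and 106 in control (log2 ratio -1.04, -1.53 to -0.56). Stk25 had 67 in H1C and 110 in control (log2 ratio -0.86, -1.32 to -0.41). All 3 intervals lay below 0, but they come from the contrast that chose the regions and are descriptions with no test. At control pileups of 60 or more, 100% of the 225 kept regions with a window had a ratio below 0. So did 97.2% of the 216 with no listed window, high-copy regions left out.

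Tbc1d14, which encodes a regulator of autophagy, had 72 in H1C and 113 in control, and Map4, which encodes a microtubule-binding protein, 49 and 107. Add3 had 74 in H1C and 114 in control, Osbpl2 52 and 108, Hdac4, which encodes a histone deacetylase, 55 and 109, and Cnnm2 59 and 107. The log2 ratios of these 6 lay between -1.27 (Map4) and -0.77 (Add3). Their regions lay between 1.18% (Map4) and 6.16% (Osbpl2) of the way along the gene. The regions of Rps6ka2, Ccnl2 and Stk25 lay at 37.8, 15.4 and 55.0%. In none of these genes did a control region lie within 1 kb of a gene end. Whether such a region lies at the main start of its gene was not tested.

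The 10 strongest regions that were not kept had control pileups of 47 to 62 and −log10 p values of 33.9 to 40.03. They lay in Urgcp (58 reads), Poc1a (59), Bach2 (60), Plekhm3 (61), Wdfy2 (52), Slc34a1 (59), Ccdc12 (55), Snx29 (62), Celsr1 (57) and Dnajb4 (47). Those of Urgcp, Poc1a and Dnajb4 overlapped an internal promoter window. Bach2 encodes a repressor of lymphoid cells, and its region stood at chr4:32258006-32258519, 5.73% of the way along the gene.

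Among kept regions with a control pileup of at least 30, the lowest ratio was that of Bptf, which encodes a subunit of the NURF remodelling complex, with 17 reads in H1C and 50 in control (log2 ratio -1.70, 95% interval -2.59 to -0.88). Tex14 had 21 in H1C and 61 in control, Trip4 17 and 49, and Nek6 16 and 46. The highest were Dock2, an activator of Rac in leukocytes, with 49 in H1C and 31 in control (log2 ratio 0.52, -0.16 to 1.22), Pcnx2 with 58 and 38, Dytn with 54 and 36, and a pair of regions in Sfi1 with 48 and 34 and with 42 and 30. The intervals of these 5 included 0.

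The kept regions were spread over many hosts. Intragenic distal regions lay in 5545 host genes, and 1897 of these held at least 1 kept region. A single kept region was found in 1535 of them, and 362 hosts held 2 or more, with 872 kept regions in all. In 71 hosts with at least 2 regions every region was kept, and in 108 hosts with at least 5 regions none was. By chromosome the kept share ran between 17.2% (chromosome 12) and 27.5% (chromosome X).

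Sfi1, which encodes a centrosome protein, held the most kept regions, 13 of 15. The kept regions had pileups of 36 to 150 in H1C and 30 to 146 in control. Of the 15 regions in Sfi1, kept or not, 8 were of high-copy sequence, as were 5 of the 5 kept regions of Tmem267. Near-identical copies could share reads there, and these values are uncertain. Cdh13 followed with 7 of 19, in a gene of 1185 kb, with pileups of 15 to 26 in H1C and 18 to 32 in control. Plekha2 held 5 of 11, at 27 to 43 in H1C and 41 to 85 in control.

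Ccnd3, which encodes cyclin D3, held 5 of 6, Myo16 5 of 7, Pax5 5 of 9, Bach2 5 of 21, Zfp978 5 of 6 and Tbc1d14 4 of 9. This ranking is by count, which favours hosts with many regions, and 21.0% of all intragenic distal regions were kept. Among these hosts were a long gene (Cdh13), high-copy sequence (Sfi1 and Tmem267) and lymphoid regulators (Pax5 and Bach2). Others, such as Tbc1d14, were of none of these kinds.

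**Figure D5:**
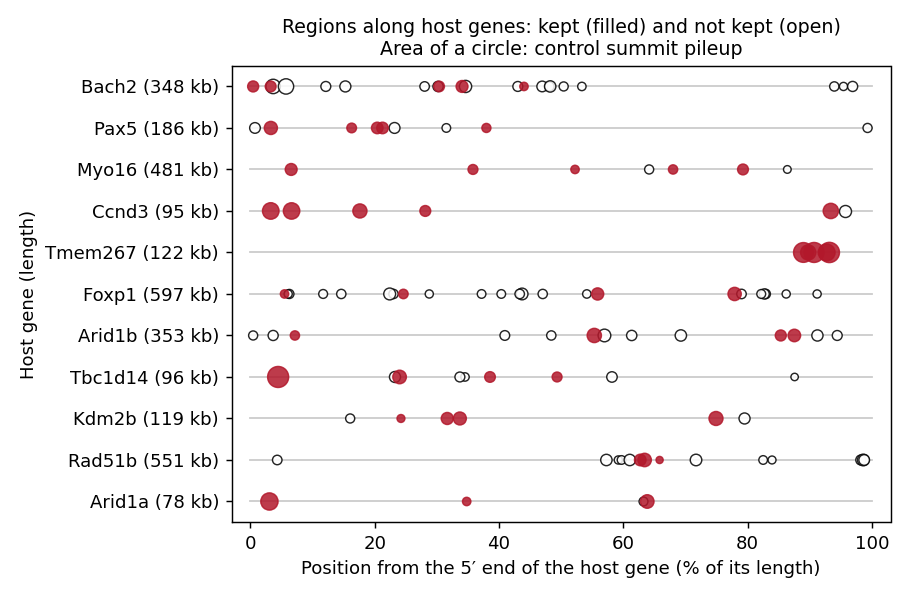
Position of each intragenic distal region along 11 named host genes with at least 3 kept regions and a strand in the table (x axis, percent of gene length from the 5′ end; rows, genes with their length in kb), with filled circles for kept and open circles for not kept regions and the circle area scaled to the control summit pileup. The 5 kept regions of Tmem267 lie together near the 3′ end, whereas the 5 of 21 kept in Bach2 all lie in the 5′ part of the gene among regions that were not kept.

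Gene lists for lineages and functions were then read against the share of all intragenic distal regions at the same −log10 p. For 54 hematopoietic stem cell regulators, 36 of 178 regions were kept (20.2%, 95% interval 14.6 to 26.9%), against 18.3% of all intragenic distal regions in the same bins. The 2 shares lay within counting error. Fli1, an ETS factor of hematopoietic and endothelial cells, kept 4 of 9, with pileups of 29, 34, 32 and 26 in H1C and 54, 50, 58 and 44 in control. Foxp1 kept 4 of 23, and Nfia 2 of 5.

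Runx1, a master regulator of blood formation, kept 2 of 11. The region 91.3% of the way along the gene had 35 reads in H1C and 48 in control. The one at 57.3%, which overlapped an internal promoter window, had 27 in H1C and 41 in control. Erg kept 1 of 7 (17 in H1C and 16 in control), Mecom 1 of 6 (23 and 26), Fgd5 1 of 3 (24 and 18) and Cdk6 2 of 11. Jak2 kept 0 of 2, with control pileups of 55 and 24, and Slamf1, which encodes the CD150 used in the gate, kept 0 of 1 (28 in control).

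Lymphoid genes kept 17 of 61 regions (27.9%, 17.1 to 40.8%), against 16.5% in the same bins, and 5 of the 17 lay in Pax5 and 5 in Bach2. Pax5, which sets B cell identity, had pileups of 21 to 38 in its 5 kept regions in H1C and of 21 to 44 in control. Lef1, an effector of Wnt signalling, kept 2 of 4, with 33 and 18 in H1C and 38 and 39 in control. Il7r kept 0 of 1 and Bcl11b 0 of 2. The interval of the list's share did not reach down to the 16.5% of all regions in those bins, but the list was chosen with earlier results known and has no test.

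Myeloid genes kept 2 of 21 (9.52%, against 12.6% in the same bins), both in Spi1, which encodes PU.1, with 25 and 23 reads in H1C and 31 and 25 in control. The span of Spi1 in the table includes a predicted transcript, so a region counted as distal can lie near a start used by its other transcripts, which was not tested. Lrp1 kept 0 of 3 and Nfkb1 0 of 5. Erythroid and megakaryocyte genes kept 5 of 24 (20.8%, against 24.8%), among them Itgb3 with 2 of 6, Epb41 with 1 of 3 and Ank1 with 1 of 3, and the regions of Vwf and Klf1 were not kept, at control pileups of 53 and 38. Mast cell genes kept 2 of 5 (40%, against 12.2%), both in Hdc, the enzyme that makes histamine, with 32 and 26 in H1C and 27 and 25 in control, and Mitf kept 0 of 3. Endothelial and stromal genes kept 1 of 11 (9.09%, against 15.5%), in Pecam1, with Pdgfra at 0 of 2 and Cdh5 at 0 of 1.

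Neuronal and synaptic genes, many of them very long, kept 16 of 68 (23.5%, 14.1 to 35.4%), against 12.7% in the same bins. Their kept regions had a median log2 ratio of -0.07, at a median pileup of 21.5 in H1C and 20.5 in control. Over all kept intragenic distal regions the median ratio was 0.03 at control pileups of 20 or less and -0.36 above 20 to 30. Fhit kept 2 of 5, with 30 and 17 in H1C and 45 and 13 in control, Magi2 2 of 5 with 21 and 24 in H1C and 35 and 25 in control, and Sox5 2 of 12 with 22 and 26 in H1C and 32 and 19 in control. Cadm2 and Cntnap2 kept 0 of 1 each. Fhit and Sox5 are not specific to neurons. The limits given for the lymphoid list hold here too, so this share likewise has no test against that of the same bins.

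Chromatin regulators kept 26 of 98 (26.5%, against 24.5% in the same bins). Kdm2b, a histone demethylase, kept 4 of 6, with pileups of 29, 20, 24 and 26 in H1C and 50, 43, 37 and 16 in control. Arid1b and Arid1a, subunits of the BAF remodelling complex, kept 4 of 13 and 3 of 4. The region of Arid1a that overlapped an internal start had 46 in H1C and 76 in control. Chd7 kept 0 of 11 and Tet3 0 of 3.

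DNA repair and Fanconi anemia genes kept 7 of 28 (25%, against 23.6%), with Rad51b at 3 of 14, Fancc at 2 of 4 and Lig4, the ligase of end joining, at 1 of 1 (42 in H1C and 69 in control, at an internal start). Fancm and Xrcc4 kept 0 of 1 each. Cytokine and JAK-STAT genes kept 10 of 62 (16.1%, against 19.6%), with Smad3 at 2 of 10, Stat5b at 2 of 5, the receptor gene Flt3 at 2 of 5 and Tgfbr2 at 0 of 4. Housekeeping genes had 5 regions, of which 4 were kept (80%), in Ywhaz and Actb, with 36 to 56 in H1C and 69 to 99 in control, and 66.4% of all intragenic distal regions in the same bins were kept. As for Spi1, the spans of Ywhaz and Actb in the table include a predicted transcript and neither gene had a listed window, so whether these regions lie at the usual start of the gene was not tested.

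The cell type of the label was checked against defining markers. Of 10 stem cell markers, 0 had an H1C region at a gene end and 4 had a control region there (Hlf, Slamf1, Kit and Meis1). Inside genes, 3 of the 6 with a control intragenic distal region had a kept one (Mecom, Fgd5 and Erg). Over all host genes with such a region, 1897 of 5545 had a kept one. Gene-end regions in H1C and in control were found for 1 and 2 of 6 myeloid markers, 2 and 5 of 6 lymphoid, 0 and 1 of 6 erythroid and megakaryocyte, 1 and 1 of 4 mast cell, 0 and 2 of 5 endothelial and stromal, and 0 and 2 of 5 non-hematopoietic markers. A larger share of lymphoid than of stem cell markers thus had a gene-end region in both lists, and all 10 stem cell markers lacked one in H1C. The share of all protein-coding genes with a gene-end region was not computed for either list. The H1C list was also shorter, with 13156 regions against 32005 in control. These counts alone therefore do not set the stem cell markers apart from other genes. The part of other cells in the kept regions was not tested.

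On the H1C side, kept regions matched a single H1C region in 2369 cases and 2 in 38 cases. The H1C region had a median width of 300 bp, the shared stretch a median of 272 bp (22 to 1249 bp), and the summits lay a median of 39 bp apart. The smallest overlaps were 22 bp in Cdh13 and 24 bp in Fyn, and the smallest gaps of regions not kept were 21 bp in Mak and 32 bp in Pitpnm3. Of the not kept regions, 12 lay within 100 bp of an H1C region and 333 within 1 kb. At the edge of 1 kb, the nearest kept regions lay 1001 bp from a gene end in Aktip (66 in H1C and 99 in control) and 1002 bp in Lmnb1 (21 and 41). Just outside it, at 999 bp, stood regions in Slc22a29 (26 in H1C and 28 in control) and Mien1 (31 and 47).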

How the data were processed

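Each library had a list of accessible regions of its own, with no pooling, used as the authors deposited it. The submitters' processing notes name mm10, MACS2, featureCounts, Picard, Bowtie2 (version 2.2.9) and Trim Galore (version 0.4.4). Their settings, the handling of duplicates and any shift towards cut sites are not given in the sources used here, and each would alter summit heights or positions. Each row has a score, a fold (the ratio of summit pileup to local background), a −log10 p, a −log10 q and a summit offset, all deposited by the authors. These are not read counts, so no count test was used.

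Pileup and local background were solved from the fold and the −log10 p, with 1 added to each. The pileup came out whole, within 0.0001, for 13156 of 13156 H1C and 32005 of 32005 control regions. The depth of the libraries is not given. The genome-wide background scaled the pileup ratios. Libraries were grouped by their treatment label. Genes, starts and strands came from RefSeq (GRCm38.p6). The host was the shortest protein-coding gene overlapped. Differences at matched strength were taken within 7 bins of control −log10 p and averaged with the number of kept regions as weights. The top bin has no upper edge, so it matches strength only in part. Intervals are exact for single shares and, for pileup ratios, exact conditional binomial. Those of differences at matched strength rest on a normal approximation. The calculations were tested on simulated data and run in Python 3.11.15 (matplotlib 3.10.9, scipy 1.17.1, pandas 2.3.3, numpy 2.4.6).

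Genes were named by rule: the 10 strongest kept and not kept regions, the 10 hosts with most kept regions, the 5 lowest and highest ratios at a control pileup of at least 30, the leading hosts of each of 11 gene lists, and the regions at the edges of the rule. Some regions that these rules name are not reported here. The strongest regions with an internal start, and Runx1, Erg, Mecom, Fgd5 and Cdk6, were added after their values were seen. The members and lists were chosen with earlier results of these data known. The comparisons of promoter windows, noncoding gene ends and neighbouring regions were added after seeing the data. GC content at the summits was not analysed here, because no genome sequence was at hand.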

Additional observations from a re-analysis of the deposited data

Results flagged for a closer look

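Regions outside chromosomes 1 to 19 and X took no part in any comparison, and they made up a larger share of the H1C list than of the control list. They were 155 of 13156 H1C regions (1.18%, exact 95% interval 1.00 to 1.38%) and 174 of 32005 control regions (0.544%, 0.466 to 0.630%). With 1 library per group this difference has no test.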

How the results depend on the processing

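No paired analysis was possible because there was 1 library in each group. For 11 results, 126 alternatives were run: 92 left the value within the interval or quartiles of the reported one, 26 moved it outside and 8 reversed its sign. The 92 include the merging of regions that touch, which left all 11 results unchanged and so is no check. The cause of a move or reversal was not tested, except where the setting itself changes what can overlap. The alternatives for GC content at the summits were not run. The kept share was 16.2% with 50% reciprocal overlap, 19.3% with summits within 200 bp, 19.9% when both lists were limited to a −log10 q of 5 or more, 19.8% over 2500 bp from a gene end, 17.6% without regions that overlap a promoter window (those of unlisted hosts stayed in) and 49.8% with lists of equal length. The width difference was -14.7 bp with 50% reciprocal overlap, 64.7 bp with summits within 200 bp, 132 bp in bins of pileup, 181 bp with no bins, 20.7 bp in bins of −log10 p and width, 91.3 bp without regions of −log10 p 30 and over and 88.0 bp without window regions. The difference of local background (log2) was 0.088 with reciprocal overlap, 0.12 with summits within 200 bp, 0.19 at the stricter q, -0.29 in bins of pileup, 0.30 with no bins and 0.11 without the top bin. The difference in internal promoter windows was 7.20 points with reciprocal overlap, 22.6 points with no bins and 7.75 points without the top bin. The difference in the share within 10 kb of a gene end was 0.285 points in bins of pileup and 1.89 points without window regions, and that in the first 20% of the gene -0.092 points without window regions. Host gene length (log2) differed by 0.21 in bins of pileup, -0.27 with no bins, 0.054 without the top bin and 0.057 without window regions. The difference in host genes with a control gene-end region was -16.2 points in bins of pileup. That in noncoding gene ends was -0.525 points in bins of pileup, 0.358 points without the top bin and 0.172 points without window regions, and that in neighbours -19.6 points in bins of pileup. Library depth is unknown, and weak regions could be missed in either list, so a region not kept is one not called in H1C and not one shown to be closed.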
